A study of Mus musculus with 18 samples.

Results

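The genes followed here encode 10 proteins that circulate in plasma: Alb, Ttr, Fgb, Ahsg, Apoa1, Apoa2, Apoc3, Hp, Trf and Cp. They were chosen by name, partly on a lower Alb signal in the diabetic than in the control mice, so the differences of Alb between groups are given as a description with no test. Each gene was read from the single probe set that carries its symbol, and the 10 stand among 19938 genes with a symbol of their own. Visceral fat, a white adipose tissue (WAT), of 18 male wildtype C57BL/6N mice aged 5-6 months was hybridised to 1 microarray per mouse. The STZ, BEZ group (n = 5) received streptozotocin (STZ), which destroys the insulin-producing beta cells, at 65 mg/kg i.p. on 5 consecutive days at 10-16 weeks of age and, from 2 weeks later, 8 weeks of bezafibrate (BEZ), a fibrate that activates PPAR receptors, at 0.25 or 0.5% (w/w) in chow. The labels do not say which mouse ate which of these amounts. The STZ, SD group (n = 6) received STZ and standard diet (SD), and the Con, SD group (n = 7) received mock injections of citrate buffer and standard diet. These treatments are as GEO's labels give them, and the study's methods differ in naming a lower STZ dose, a single age at injection, only the higher BEZ amount and controls that were not treated. STZ diabetes is a model of insulin lack. Signals are log2 values from robust multi-array averaging (RMA), so a difference of 1 is a doubling, and only arrays are compared within a gene, never 1 gene with another.

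Hepatocytes make most plasma proteins, and the genes for these proteins are driven there by transcription factors such as HNF1, HNF4 and the C/EBP family. Some of them are also made elsewhere: adipocytes make haptoglobin, transferrin and ceruloplasmin, islet cells make transthyretin, and the intestine makes apolipoprotein A-I. In a piece of dissected fat, a liver-type transcript can therefore come from fat cells or from a trace of another organ, and in bulk tissue fewer cells of a type and less RNA per cell cannot be told apart.

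The promoters of 4 of the genes are shown because the genes fell into different patterns across the arrays described next, with Alb, Fgb and Ahsg on one side and Cp on the other. RefSeq promoter windows on GRCm38.p6 matched 6 of the 10 genes, and each window holds 250 bases before and 50 bases after the annotated start, 5′ to 3′ on the gene's strand. Capitals mark matches on either strand to GTTAAT, a core of HNF1 sites, and to TTNNGCAA, a C/EBP-type pattern. The patterns share no match in these windows.
Alb, chr5:90460620-90460919, plus strand: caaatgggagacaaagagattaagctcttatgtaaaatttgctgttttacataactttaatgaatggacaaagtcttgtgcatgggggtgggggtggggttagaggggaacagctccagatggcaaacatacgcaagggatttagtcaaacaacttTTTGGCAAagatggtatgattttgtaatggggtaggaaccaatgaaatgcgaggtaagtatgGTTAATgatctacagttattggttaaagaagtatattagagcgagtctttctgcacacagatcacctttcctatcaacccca
Fgb, chr3:83049814-83050113, minus strand: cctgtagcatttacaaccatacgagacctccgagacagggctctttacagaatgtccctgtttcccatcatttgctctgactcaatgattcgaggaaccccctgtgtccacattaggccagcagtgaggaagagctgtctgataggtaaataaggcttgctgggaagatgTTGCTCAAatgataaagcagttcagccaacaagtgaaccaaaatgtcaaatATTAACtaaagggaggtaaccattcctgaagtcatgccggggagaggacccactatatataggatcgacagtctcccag
Ahsg, chr16:22891765-22892064, plus strand: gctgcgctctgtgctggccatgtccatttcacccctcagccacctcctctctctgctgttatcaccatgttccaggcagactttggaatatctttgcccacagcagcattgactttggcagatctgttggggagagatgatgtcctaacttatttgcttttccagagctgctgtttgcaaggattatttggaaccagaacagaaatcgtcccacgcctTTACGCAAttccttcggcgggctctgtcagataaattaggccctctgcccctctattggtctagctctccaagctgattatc
Cp, second annotated start, chr3:19956999-19957298, plus strand: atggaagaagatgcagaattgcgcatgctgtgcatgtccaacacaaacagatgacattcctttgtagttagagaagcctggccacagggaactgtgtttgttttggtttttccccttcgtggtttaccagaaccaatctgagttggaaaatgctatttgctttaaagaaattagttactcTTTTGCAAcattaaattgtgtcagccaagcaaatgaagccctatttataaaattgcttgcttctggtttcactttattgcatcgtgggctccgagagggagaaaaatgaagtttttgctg
The Alb window held GTTAAT from 32 bases before the start and a C/EBP-type match from 94 bases before it. The Fgb window held the same pair, both on the other strand, from 29 and 80 bases before the start. The Ahsg window held a C/EBP-type match alone, and so did the Cp window shown, while the window at the other annotated Cp start held the HNF1 letters alone, from 194 bases before it. The Apoa1 window held neither pattern, and 1 of 2 Apoa2 windows held 2 C/EBP-type matches. Among 32851 mouse windows of this length, 7.1% held GTTAAT, 10.8% held TTNNGCAA and 0.941% held both. These letters are a description of the windows and show no binding.

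Markers of other organs separated single arrays and, for the pancreas, also most of the STZ, BEZ group. The 25 hepatocyte enzymes and transporters measured averaged 7.61 on STZ, BEZ replicate 5, against 5.72 to 6.68 on the other 17 arrays, and the next highest was Con, SD replicate 2. The dimmest 25% of all genes had mean signals under 5.79. These enzymes thus lay near the dim end on most arrays, where a small amount of liver RNA could go unseen. On that STZ, BEZ array 17 of the 25 stood more than 1 log2 unit above the median of STZ, BEZ replicates 1 to 4, as did 208 of all 19938 genes (1.04%). The 16 pancreas markers averaged 12.92 on STZ, SD replicate 6 and 8.37 to 10.86 on STZ, BEZ replicates 1 to 4, against 5.81 to 6.18 on all other arrays. Without STZ, BEZ replicate 5 and STZ, SD replicate 6, they were thus high on every STZ, BEZ array left and on no other array. The part of pancreas RNA in the STZ, BEZ differences was not tested. The 14 white adipocyte markers, which identify the labelled tissue, averaged 9.91 on STZ, SD replicate 6 and 11.18 to 12.26 elsewhere, so adipocyte transcripts were present on every array. The 18 epididymis and testis markers ranged from 5.58 to 11.59. Array medians over all probe sets lay between 6.76 and 6.87.

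**Figure D1:**
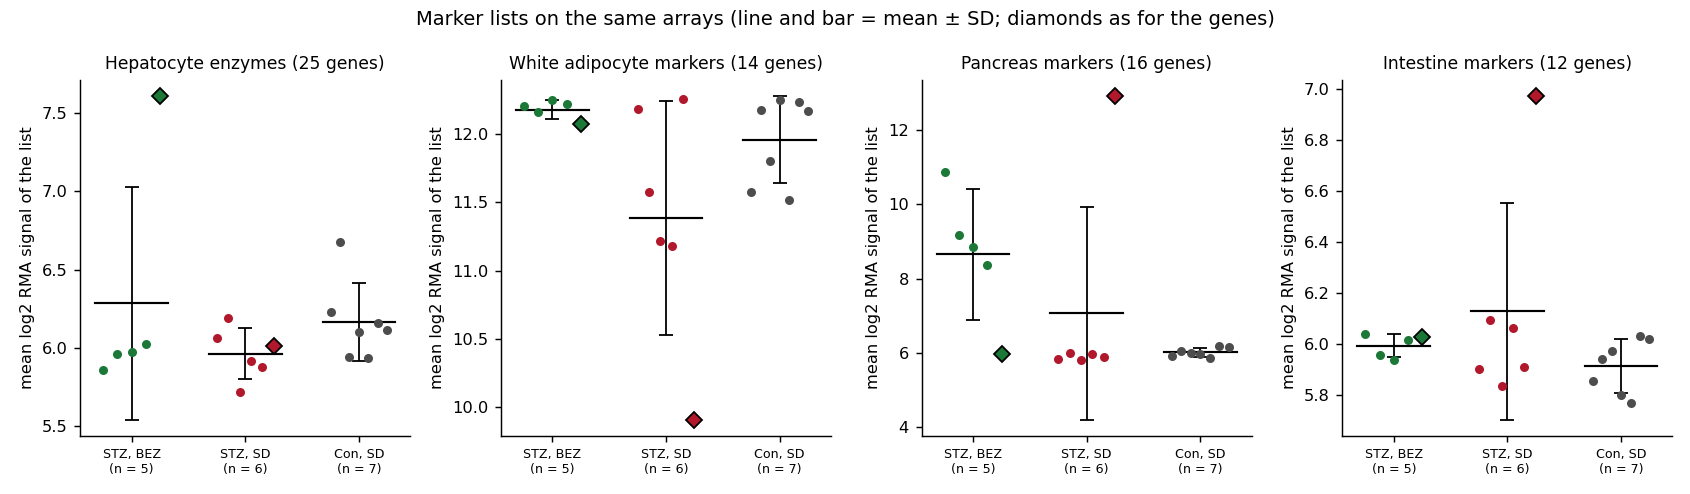
Mean log2 RMA signal (vertical axis) of hepatocyte, white adipocyte, pancreas and intestine markers, 1 point per mouse in the STZ, BEZ, STZ, SD and Con, SD groups (horizontal axis), with group mean and SD. Hepatocyte enzymes stood at 7.61 on STZ, BEZ replicate 5, and on STZ, SD replicate 6 white adipocyte markers stood at 9.91 and pancreas markers at 12.92 (both arrays as diamonds).

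STZ, BEZ replicate 5 and STZ, SD replicate 6 divided the plasma protein genes. On STZ, BEZ replicate 5, Apoa2 stood 3.83 log2 units above the median of replicates 1 to 4, Ahsg 3.53, Ttr 3.45, Fgb 3.43, Apoa1 2.98, Alb 2.45 and Apoc3 2.27. All of these 7 shifts were larger than the range of replicates 1 to 4 for the same gene, which was 0.50 to 0.92. Hp, Trf and Cp shifted there by -0.22, -0.02 and -0.08, no more than their range among replicates 1 to 4. On STZ, SD replicate 6, the array lowest in adipocyte markers, Trf shifted by -2.19 from the median of the other 5 STZ, SD arrays, Hp by -1.90 and Cp by -1.30, each more than the range of those 5. Alb and Apoc3 shifted there by -1.55 and -1.05, less than the range of the other 5, and Apoa1 and Ttr by 2.06 and 1.69. Apoa2, Ahsg and Fgb shifted there by -0.53, -0.59 and 0.02, also less than the range of the other 5. Hp, Trf and Cp were thus placed on these 2 arrays as the adipocyte markers were, and STZ, BEZ replicate 5 was the highest STZ, BEZ array for the other 7 genes. Mesothelium and macrophage markers also shifted on STZ, SD replicate 6, by -0.92 and -0.61. Elsewhere Cp did not always follow the adipocyte markers. On STZ, SD replicate 4 it was the highest of all arrays, at 11.21, with adipocyte markers at 11.18. This is a description of single arrays, with no test.

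**Figure D2:**
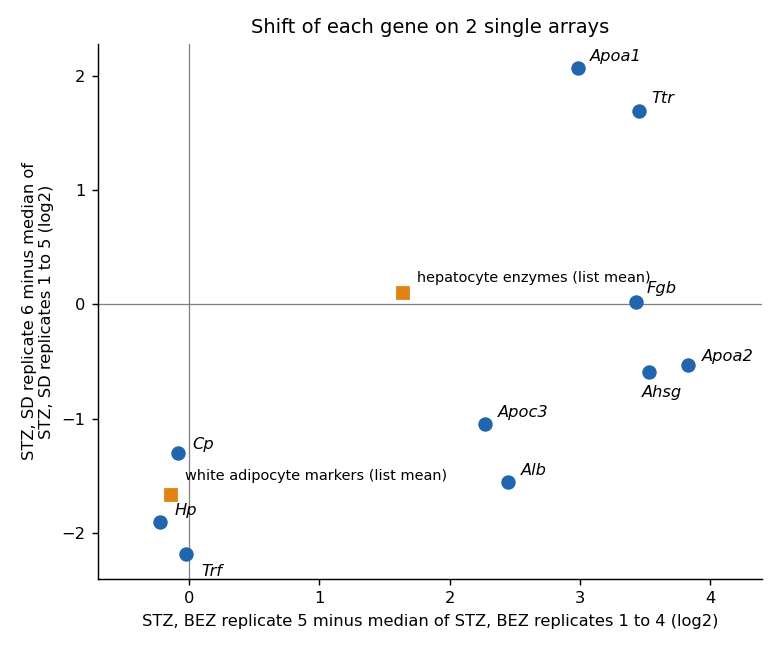
Shift of each gene (circles) and of 2 marker list means (squares) on STZ, BEZ replicate 5 (horizontal axis) and STZ, SD replicate 6 (vertical axis) from the median of the other arrays of the same group, in log2 units. Hp, Trf and Cp lie beside the white adipocyte markers, and Apoa1 and Ttr were high on both arrays.

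**Figure D3:**
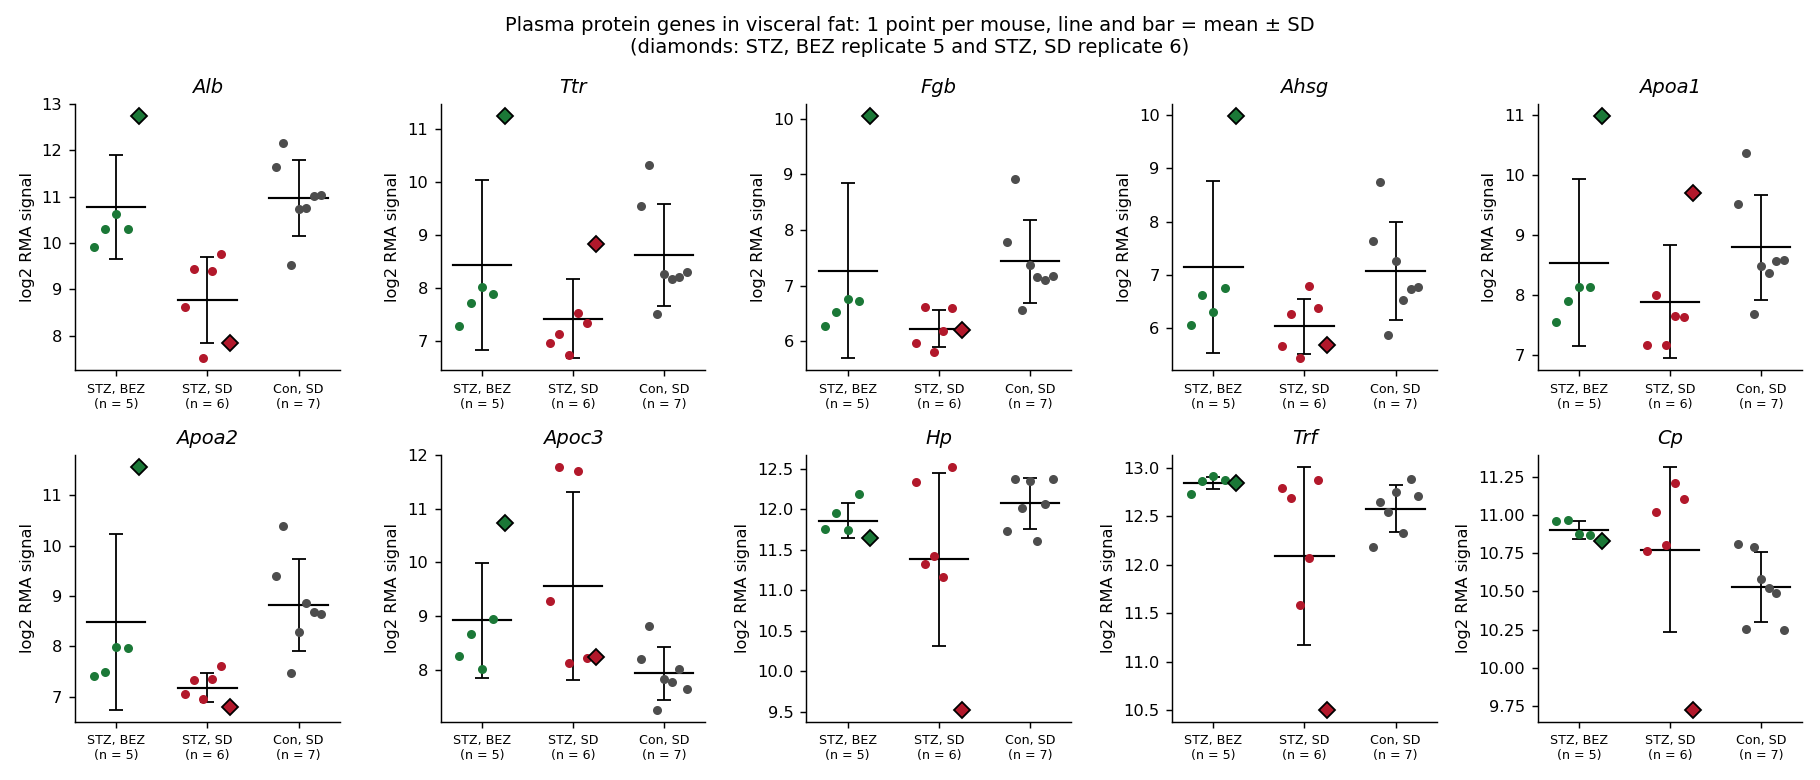
Log2 RMA signal (vertical axes, each with its own range) of the 10 genes, 1 point per mouse, with group mean and SD. STZ, BEZ replicate 5 (green diamond) is the highest STZ, BEZ array for 7 genes, and STZ, SD replicate 6 (red diamond) the lowest of all arrays for Hp, Trf, Cp and Apoa2.

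Alb encodes albumin, the main carrier protein of plasma. Its signals were 9.91, 10.30, 10.63, 10.30 and 12.75 in the STZ, BEZ mice. In STZ, SD mice the lowest was 7.51, the median 9.01 and the highest 9.76, and in Con, SD mice 9.53, 11.01 and 12.15. Alb was thus low in the STZ, SD mice, where all 6 arrays were below the Con, SD mean and only the highest, replicate 5, exceeded the lowest Con, SD array. Alb was not low in every diabetic mouse, since the signal of STZ, BEZ replicate 5 was the highest of all 18 arrays. The means were 10.78 ± 1.13 in STZ, BEZ mice, 8.76 ± 0.93 in STZ, SD mice and 10.98 ± 0.82 in Con, SD mice (SD, n = 5, 6 and 7). STZ, SD lay 2.22 ± 0.49 (SE) below Con, SD, a 4.65-fold difference, and STZ, BEZ lay 0.20 ± 0.52 below Con, SD. With the hepatocyte enzyme mean as a covariate these 2 differences were -1.87 and -0.40.

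Between the diabetic groups Alb is again given with no test, since the low STZ, SD values took part in the choice of the genes. It was 2.01 ± 0.53 (SE) higher in STZ, BEZ than in STZ, SD mice, with 5 of 5 STZ, BEZ arrays above every STZ, SD array, as for 1.04% of all genes. Without STZ, BEZ replicate 5 the difference was 1.52. STZ, BEZ replicates 1 to 4 had Alb at 10.28 ± 0.29 (SD, n = 4), against 8.95 ± 0.90 in STZ, SD replicates 1 to 5 (SD, n = 5). Hepatocyte enzymes averaged 5.86 to 6.02 on these STZ, BEZ arrays and 5.72 to 6.19 on these STZ, SD arrays. Such means are close to the dim end of the signals, at 5.79, and could miss a small amount of liver RNA. Other plasma protein genes of hepatocytes averaged 5.98 to 6.22 on the same STZ, BEZ arrays and 5.82 to 6.04 on the same STZ, SD arrays, ranges shifted the same way as Alb that overlap between 5.98 and 6.04. The part of these genes in the Alb difference was not tested. The genes most like Alb over the 18 arrays were Mup3, a major urinary protein (Pearson r = 0.92), Serpina1c, an alpha-1-antitrypsin (r = 0.92), and Apoa2 (r = 0.90). Without STZ, SD replicates 3 and 6, the 2 arrays farthest from the Alb median, these r were all 0.95. STZ, BEZ replicate 5 and Con, SD replicate 2, the arrays highest in hepatocyte enzymes, were kept in.

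Ttr encodes transthyretin, which carries thyroxine and retinol-binding protein. Its signals were 7.28, 7.71, 8.02, 7.88 and 11.25 in STZ, BEZ mice. In STZ, SD mice they had a lowest of 6.72, a median of 7.23 and a highest of 8.83, and in Con, SD mice 7.51, 8.27 and 10.32. The groups overlapped, and the highest STZ, SD array was replicate 6. On that array Gcg, the glucagon gene of islet alpha cells, stood at 10.35, against 5.22 to 5.54 on the other STZ, SD arrays (chosen after its values were seen). Ttr differed by -1.20 ± 0.58 (SE) between STZ, SD and Con, SD (adjusted p = 0.255 by limma with Benjamini-Hochberg adjustment over 19938 genes, above the 0.10 used for calls). Without the 2 arrays that stood apart, STZ, BEZ replicate 5 and STZ, SD replicate 6, the difference was -1.48 (adjusted p = 0.0261), so the call turned on these arrays. With Con, SD replicates 1 and 2 left out as well, it was -0.95 (adjusted p = 0.0174). Without STZ, BEZ replicate 5 alone, which enters this comparison only through the common estimate of spread, the adjusted p was 0.0963, and 9.94% of all genes were called.

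Fgb, the beta chain of fibrinogen, which forms the clot, gave signals of 6.27, 6.52, 6.76, 6.72 and 10.05 in STZ, BEZ mice. The STZ, SD arrays ran from 5.80 over a median of 6.19 to 6.61, and the Con, SD arrays from 6.56 over 7.17 to 8.92. The STZ, SD signals thus began near 5.79, the mean signal below which the dimmest 25% of genes lay. Only 2 STZ, SD arrays reached the lowest Con, SD array, and STZ, BEZ replicate 5 was again the highest of all. The difference of STZ, SD from Con, SD was -1.21 ± 0.50 (SE, limma adjusted p = 0.169), with 6 of 6 STZ, SD arrays below the Con, SD mean. It was -1.20 without the 2 arrays that stood apart, with an adjusted p of 0.0251. With Con, SD replicates 1 and 2 left out as well, it was -0.84 (adjusted p = 0.0229). Hepatocyte enzymes averaged 5.96 ± 0.16 in STZ, SD and 6.17 ± 0.25 in Con, SD mice (SD, n = 6 and 7). With their mean as a covariate the Fgb difference was -0.77 (adjusted p = 0.0103, with 11.5% of all genes called), and without STZ, BEZ replicate 5 alone its adjusted p was 0.0220. Fga, the alpha chain, differed by -0.43 (adjusted p = 0.160).

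Ahsg encodes fetuin-A, an inhibitor of calcification that also binds the insulin receptor. It had 6.05, 6.62, 6.31, 6.74 and 9.99 in STZ, BEZ mice. The STZ, SD arrays spanned 5.43 to 6.78 with a median of 5.97, and the Con, SD arrays 5.87 to 8.75 with a median of 6.76. The lower STZ, SD values were under 5.79, the mean signal below which the dimmest 25% of genes lay. The STZ, SD and Con, SD arrays overlapped between 5.87 and 6.78, and STZ, BEZ replicate 5 was again the highest of all. STZ, SD differed from Con, SD by -1.05 ± 0.55 (SE, limma adjusted p = 0.306). Ahsg did not pass without the 2 arrays either (-0.98, adjusted p = 0.130), nor without Con, SD replicates 1 and 2 as well (-0.53, adjusted p = 0.271). It lay at the threshold without STZ, BEZ replicate 5 alone (adjusted p = 0.0996).

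Apoa1 and Apoa2 encode the main apolipoproteins of high-density lipoprotein. Apoa2 stood at 7.42, 7.5, 7.98, 7.97 and 11.56 in STZ, BEZ mice, from 6.80 over a median of 7.19 to 7.61 in STZ, SD mice, and from 7.48 over 8.68 to 10.39 in Con, SD mice. A single STZ, SD array, replicate 5, reached the lowest Con, SD array. Apoa2 fell by 1.64 ± 0.56 (SE) in STZ, SD relative to Con, SD, a 3.11-fold difference with a limma adjusted p of 0.0929. Leaving out 1 array at a time kept this call in 3 of 18 fits, with adjusted p from 0.0135 without STZ, BEZ replicate 5 to 0.176 without Con, SD replicate 2. Apoa2 was not called in STZ, BEZ against STZ, SD (1.30 ± 0.61 (SE), adjusted p = 0.481), and without STZ, BEZ replicate 5 that difference was 0.53.

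Apoa1 stood at 7.55, 7.90, 8.12, 8.12 and 10.99 in STZ, BEZ mice. It ran from 7.16 over a median of 7.64 to 9.70 in STZ, SD mice and from 7.68 over 8.56 to 10.37 in Con, SD mice. The STZ, SD array at 9.70 was replicate 6, where Apoa4, a neighbouring apolipoprotein gene of the intestine, stood at 9.12 against 6.24 to 6.68 on the other STZ, SD arrays (chosen after its values were seen). The 12 intestine markers averaged 6.97 on that array and 5.77 to 6.09 on all others, and their part in the Apoa1 signal was not tested. STZ, SD differed from Con, SD by -0.91 ± 0.55 (SE, limma adjusted p = 0.389), and by -1.27 without the 2 arrays that stood apart (adjusted p = 0.0354). With Con, SD replicates 1 and 2 left out as well, the difference was -0.81 (adjusted p = 0.0324).

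Apoc3, next to Apoa1 on chromosome 9, encodes an apolipoprotein that slows the clearance of triglyceride-rich lipoproteins, and its pattern differed from that of its neighbour. Its signals were 8.26, 8.66, 8.01, 8.94 and 10.73 in STZ, BEZ mice and 9.28, 11.78, 8.11, 11.71, 8.21 and 8.24 in STZ, SD mice. In Con, SD mice the lowest was 7.25, the median 7.83 and the highest 8.82. STZ, SD replicates 2 and 4 were the highest of all arrays and replicate 1 also exceeded every Con, SD array, whereas replicates 3, 5 and 6 lay within the Con, SD range. The means were 9.55 ± 1.75 in STZ, SD and 7.93 ± 0.49 in Con, SD mice (SD, n = 6 and 7), a difference of 1.62 ± 0.62 (SE, limma adjusted p = 0.133). It passed once STZ, SD replicate 3 (adjusted p = 0.0683), replicate 5 (adjusted p = 0.0851) or replicate 6 (adjusted p = 0.0743) was left out, and with the hepatocyte enzymes as a covariate (1.96, adjusted p = 0.0342), and was 1.18 without STZ, SD replicate 2. Hepatocyte enzymes averaged 6.06, 6.19 and 5.91 on STZ, SD replicates 1, 2 and 4, inside the Con, SD range or just under its lowest value of 5.94.

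The genes most like Apoc3 over the 18 arrays were Igfbp3, a carrier of insulin-like growth factors, Cabp4, a calcium-binding protein, and Pappa, a protease that cuts IGF-binding proteins (Pearson r = 0.95, 0.94 and 0.90, a search added after the Apoc3 values were seen). Igfbp3 stood at 10.34, 11.28 and 11.26 on STZ, SD replicates 1, 2 and 4, against 8.90 to 9.02 on replicates 3, 5 and 6, and Cabp4 at 8.22, 8.89 and 8.80, against 6.82 to 6.91. That the same 3 STZ, SD arrays were high for all 3 genes follows from how Igfbp3 and Cabp4 were chosen. Without STZ, SD replicates 2 and 4, r was 0.85 for both Igfbp3 and Cabp4 and 0.64 for Pappa. Lep, the leptin gene, stood at 6.52 and 6.22 on STZ, SD replicates 2 and 4, but at 9.79 on replicate 1 and at 6.64 on replicate 6, so low Lep and high Apoc3 did not coincide on every array.

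**Figure D4:**
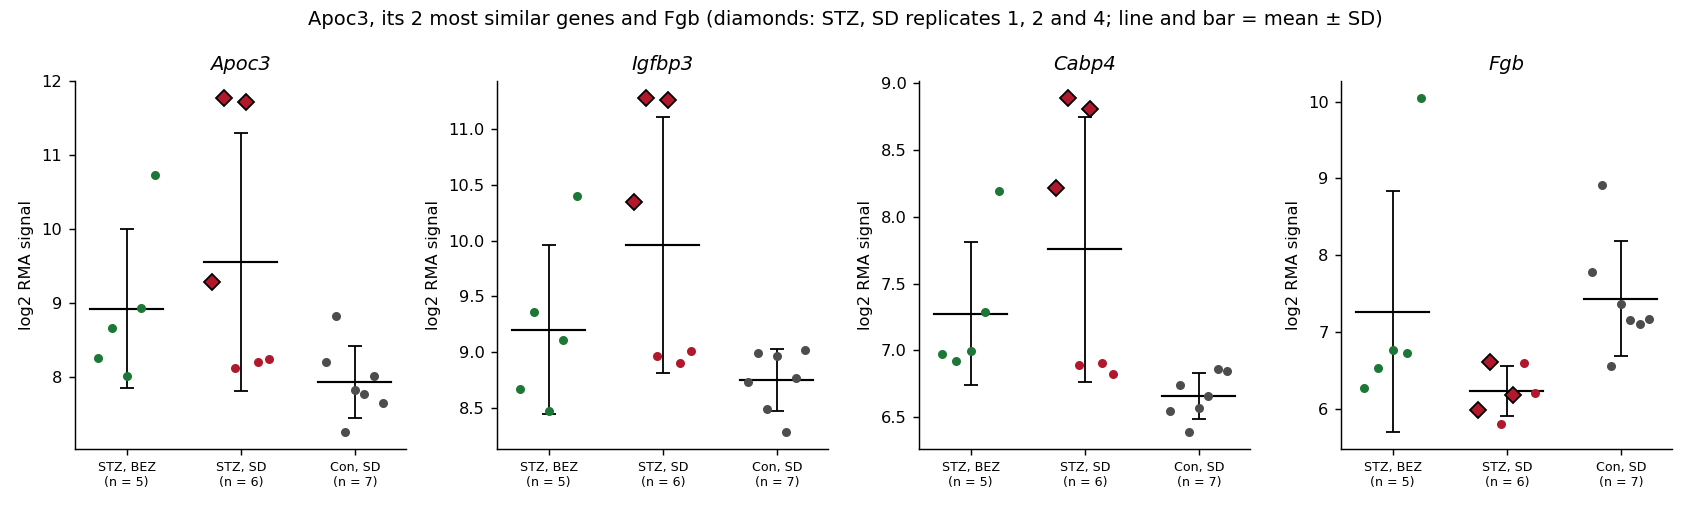
Log2 RMA signal (vertical axes) of Apoc3, Igfbp3, Cabp4 and Fgb, 1 point per mouse with group mean and SD. STZ, SD replicates 1, 2 and 4 (diamonds) exceed all Con, SD arrays for Apoc3 and for Igfbp3 and Cabp4, which were chosen for their likeness to it, and none of them stands above the Con, SD mean for Fgb.

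Hp encodes haptoglobin, which binds free haemoglobin. Its signals were 11.76, 11.96, 11.74, 12.20 and 11.64 in STZ, BEZ mice. They ran from 9.52 over a median of 11.38 to 12.52 in STZ, SD mice and from 11.61 over 12.06 to 12.38 in Con, SD mice. STZ, SD replicates 1 and 5 had Hp at 12.33 and 12.52 with adipocyte markers at 12.19 and 12.26, and replicates 2, 3 and 4 had Hp at 11.33, 11.43 and 11.17 with adipocyte markers at 11.57, 11.21 and 11.18. The STZ, SD arrays low in Hp were thus those low in adipocyte markers. The difference from Con, SD was -0.69 ± 0.34 (SE, limma adjusted p = 0.271), and -0.32 without STZ, SD replicate 6. The genes most like Hp were Cachd1, Cav2, a caveolin of adipocytes and endothelium, and Lrg1, a plasma glycoprotein that fat also makes (Pearson r = 0.97, 0.97 and 0.95 over 18 arrays, and 0.91, 0.87 and 0.82 without STZ, SD replicates 4 and 6).

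Trf encodes transferrin, the iron carrier of plasma. It stood at 12.74, 12.86, 12.91, 12.87 and 12.84 in STZ, BEZ mice, from 10.50 over a median of 12.38 to 12.88 in STZ, SD mice, and from 12.19 over 12.65 to 12.88 in Con, SD mice. The STZ, BEZ arrays were close together (SD 0.07), those of STZ, SD far apart (SD 0.92). STZ, BEZ differed from STZ, SD by 0.76 ± 0.31 (SE, limma adjusted p = 0.408), with 5 of 5 arrays above the STZ, SD mean, and by 0.44 without STZ, SD replicate 6. The genes most like Trf were Cd36, a fatty acid transporter, Chpt1, an enzyme of phosphatidylcholine synthesis, and Lipe, hormone-sensitive lipase (Pearson r = 0.98, 0.97 and 0.97 over 18 arrays, and 0.91, 0.90 and 0.93 without STZ, SD replicates 3 and 6).

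Cp encodes ceruloplasmin, a copper protein that oxidises iron. It stood at 10.96, 10.97, 10.87, 10.87 and 10.83 in STZ, BEZ mice, from 9.73 over a median of 10.91 to 11.21 in STZ, SD mice, and from 10.24 over 10.53 to 10.81 in Con, SD mice. All 5 STZ, BEZ arrays were above all 7 Con, SD arrays, as for 5.17% of all genes, and all STZ, SD arrays but replicate 6 were above the Con, SD mean. The difference was 0.37 ± 0.19 (SE) for STZ, BEZ against Con, SD (limma adjusted p = 0.318) and 0.24 ± 0.18 for STZ, SD against Con, SD (adjusted p = 0.506). Without STZ, SD replicate 6 both passed, at 0.37 (adjusted p = 0.0485, with 10.5% of all genes called) and 0.45 (adjusted p = 0.0180, with 14.5% called). The genes most like Cp were Sfrp1, an inhibitor of Wnt signalling, Kansl3 and Tbc1d32 (Pearson r = 0.95, 0.94 and 0.91 over 18 arrays, and 0.87, 0.84 and 0.81 without STZ, SD replicate 6 and Con, SD replicate 7).

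Across the 10 genes, 8 were lower on average in STZ, SD than in Con, SD mice. Alb, whose low signal took part in the choice of the genes, is among these 8. Of the 9 tested, only Apoa2 was called, where 10.3% of all genes were called, 4.52% lower and 5.82% higher. A SAM-type permutation test called 6 of the 9, where it called 10.3% of all genes as well: Apoa2, Ttr, Apoa1, Fgb and Ahsg lower and Apoc3 higher. Without STZ, BEZ replicate 5 and STZ, SD replicate 6 the tested calls were Apoa2, Ttr, Apoa1 and Fgb, which fell, and Apoc3 (1.89, adjusted p = 0.0567) and Cp (0.45, adjusted p = 0.0220), which rose, where 14.4% of all genes were called. That fit kept Con, SD replicate 2. There Alb, Ttr, Apoa1, Apoa2, Apoc3, Fgb and Ahsg stood 1.02 to 2.09 above the median of the other Con, SD arrays. Without Con, SD replicates 1 and 2 as well, the same genes were called, where 12.1% of all genes were. Apoa2 then differed by -1.13 instead of -1.56. With bezafibrate, in STZ, BEZ against STZ, SD, 9 of 10 genes were higher on average, Alb again among them. Of the 9 tested none was called by limma, where 0.707% of all genes were called, and 2 had an unadjusted p under 0.05. The SAM-type test called none of the 9, where it called 3.65% of all genes. The median of the 10 differences, Alb included, was 0.88 beside 0.01 over all genes. STZ, BEZ replicate 5 carried much of it for some genes. Without that array the differences of Apoa1, Ttr, Fgb, Ahsg and Apoa2 were 0.04, 0.31, 0.34, 0.40 and 0.53, against 0.65, 1.01, 1.04, 1.12 and 1.30 with it. Alb went from 2.01 to 1.52 and Apoc3 from -0.63 to -1.09. Those of Hp, Trf and Cp were 0.53, 0.76 and 0.15, against 0.48, 0.76 and 0.13 with it. None of the 9 genes tested in STZ, BEZ against Con, SD was called by limma, where 5.95% of all genes were. Their differences lay between -0.34 for Apoa2 and 0.99 for Apoc3, and the SAM-type test called Apoc3, Trf and Cp higher, where it called 22.9% of all genes. The p-values measure the spread between these mice in a single series of arrays.

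**Figure D5:**
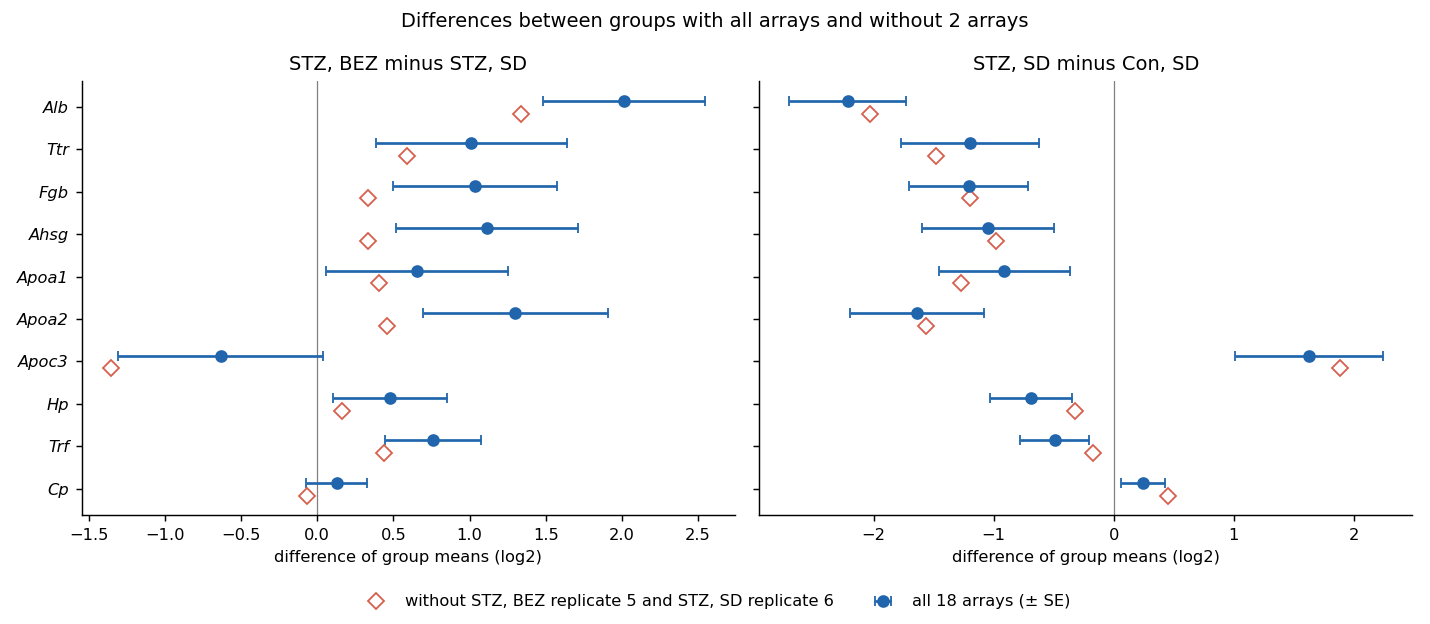
Difference of group means (horizontal axis, log2) for the 10 genes (vertical axis) in STZ, BEZ minus STZ, SD and STZ, SD minus Con, SD. Circles with bars are the fit over all 18 arrays with its SE, and open diamonds the fit without STZ, BEZ replicate 5 and STZ, SD replicate 6, which lowers the STZ, BEZ minus STZ, SD difference of Alb to 1.34.

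Other genes for hepatocyte plasma proteins went the same way on average. The 27 measured had a median difference of -0.37 in STZ, SD against Con, SD, beside -0.03 over all genes. Of them 4 were called lower and none higher, where 4.52% of all genes were called lower and 5.82% higher. The 4 were Rbp4, the retinol carrier that adipocytes also make (-1.23, limma adjusted p = 0.0481), Serpina1c (-2.42, 0.0541), Serpina1d, another alpha-1-antitrypsin (-1.11, 0.0614), and C8a of the complement pathway (-0.27, 0.0700). Serpina1c and Serpina1d are close copies, so their probe sets may share signal. None of the 27 was called in STZ, BEZ against STZ, SD, where Serpina1c (1.80, adjusted p = 0.423) and Apoh (0.91, adjusted p = 0.481) had the smallest p. Over all genes 0.707% were called there. Of 25 hepatocyte enzymes and transporters none was called in either comparison, with Uroc1 (-0.23, adjusted p = 0.108) and Slc10a1, a bile acid importer (-0.94, adjusted p = 0.169), first in STZ, SD against Con, SD. Fah, an enzyme of tyrosine breakdown, had the smallest p in STZ, BEZ against STZ, SD (1.18 higher, adjusted p = 0.141, not called). Its groups did not overlap, as for 1.04% of all genes.

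Acute phase genes, which the liver and fat switch on in inflammation, gave 4 lower and 1 higher call among 22 in STZ, SD against Con, SD. Over all genes 4.52% were called lower there and 5.82% higher. Orm1, an acid glycoprotein, fell by 2.60 (limma adjusted p = 0.0197), Lbp, which binds bacterial lipopolysaccharide, by 1.25 (adjusted p = 0.0291), Orm2, a close copy of Orm1, by 0.84 (adjusted p = 0.0491), and Serpina3n, a protease inhibitor outside the naming rule, by 0.96 (adjusted p = 0.0536). Itih4 rose by 1.37 (adjusted p = 0.0372). Orm1 was 6.39 on STZ, SD replicate 6 and 7.47 to 10.67 on the other STZ, SD arrays, against 10.60 to 11.98 in Con, SD mice. None of the 22 was called in STZ, BEZ against STZ, SD, where Mt2, a metallothionein (-0.33, adjusted p = 0.233), and Steap4, a metal reductase of adipocytes (0.97, adjusted p = 0.403), came first.

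Among 20 genes of apolipoproteins and lipoprotein handling, Vldlr, the receptor for very-low-density lipoprotein, fell by 0.79 in STZ, SD against Con, SD (limma adjusted p = 0.0272). Over all genes 10.3% were called in that comparison. Scarb1, the receptor for high-density lipoprotein, rose by 0.92 in STZ, BEZ against STZ, SD (adjusted p = 0.0501), where 0.707% of all genes were called. Its groups did not overlap, as for 1.04% of all genes. Apoe, which fat makes, stood at 12.60 ± 0.44 in STZ, SD and 12.87 ± 0.12 in Con, SD mice (SD, n = 6 and 7, adjusted p = 0.337). Of 23 clotting genes none was called in either comparison, with Fga and F7 (-0.25, adjusted p = 0.188) first in STZ, SD against Con, SD, and F5 (0.42, adjusted p = 0.479) and F8 (-0.38, adjusted p = 0.495) first in STZ, BEZ against STZ, SD.

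In STZ, SD against Con, SD, 4.52% of all genes were called lower and 5.82% higher. Iron, haem and copper genes, the pathway of Hp, Trf and Cp, gave 4 lower and 2 higher calls there among 26. Those that fell were Hfe, a regulator of iron uptake (-1.40, limma adjusted p = 0.0239), Atox1, a copper chaperone (-0.59, 0.0320), Hephl1, a ferroxidase related to Cp (-0.68, 0.0429), and Tfr2, a transferrin receptor that senses iron (-0.44, 0.0542). Those that rose, named after their values were seen, were Slc40a1, the iron exporter ferroportin (0.62, adjusted p = 0.0896), and Ccs, a copper chaperone (0.37, adjusted p = 0.0718). None was called in STZ, BEZ against STZ, SD, with Aco1, an iron-regulated aconitase (0.70, adjusted p = 0.224), and Slc39a14, a metal importer (-0.43, adjusted p = 0.331), first. Of 22 transcription factors and signalling genes that drive plasma protein genes in liver and fat, none was called in these 2 comparisons. The first in STZ, SD against Con, SD were Il6st, the shared receptor chain of IL6-type cytokines (0.47, adjusted p = 0.108), and Cebpd (0.62, adjusted p = 0.111). The first in STZ, BEZ against STZ, SD were Ppara, a receptor that fibrates activate (0.48, adjusted p = 0.320), and Cebpa, the C/EBP of mature adipocytes and hepatocytes (0.83, adjusted p = 0.416).

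Among 14 white adipocyte markers, Lep fell by 3.83 in STZ, SD against Con, SD (limma adjusted p = 0.00904), and 13 of 14 were lower on average. All 14 were higher on average in STZ, BEZ than in STZ, SD mice and none was called, with Slc2a4, the insulin-regulated glucose transporter (1.28, adjusted p = 0.224), and Plin1, a coat protein of lipid droplets (0.88, adjusted p = 0.300), first. Among 12 macrophage markers and 11 mesothelium markers none was called in these comparisons, and among 11 neutrophil markers Elane rose by 0.59 in STZ, SD against Con, SD (adjusted p = 0.0826). Among 12 intestine markers Lgals4 rose by 1.05 (adjusted p = 0.00773). None of 16 pancreas, 18 epididymis and testis or 3 red blood cell markers was called in these 2 comparisons. Over all genes, 10.3% were called in STZ, SD against Con, SD and 0.707% in STZ, BEZ against STZ, SD. In STZ, BEZ against Con, SD, 4 of the 16 pancreas markers were called higher, with a median difference of 2.88. There 2 of the 18 epididymis and testis markers were called lower, with a median of -2.90, and 5.95% of all genes were called.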

How the data were processed

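Total RNA of visceral fat was labelled and hybridised to Affymetrix Mouse Gene 1.0 ST arrays by the authors, who deposited log2 RMA signals from Affymetrix Expression Console 1.2. The table holds 35556 probe sets, of which 21789 carry 1 symbol in the platform annotation. Where several probe sets named a gene, the brightest on average was used, which left 19938 genes, of which 82 kept the platform symbol because the RefSeq table did not hold them. Values were used as deposited. Fits used limma 3.58.1 (R 4.3.3) with 3 group means over all arrays, Benjamini-Hochberg adjustment over 19938 genes and calls at an adjusted p under 0.10. The test was checked on simulated data. Alb was left out of all counts of calls. The genes and lists were chosen with earlier results of these data known. All 10 plasma protein genes were named, with up to 4 called genes of each other list by p-value, or otherwise its first 2, and the 3 genes most correlated with Alb, Hp, Trf and Cp, predicted genes left out. Alternatives were other normalizations, filters, weights, covariates, a replicate block, a SAM-type test with 100 permutations and fits without single arrays; leaving out 2 or 4 arrays that stood apart was chosen after seeing the data. Replicate numbers were not taken as pairs. The number of arrays limits the precision. No 2 arrays were duplicates (highest correlation 0.991).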

Additional observations from a re-analysis of the deposited data

Results flagged for a closer look

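In 45 groups of values (10 genes and 5 marker list means in 3 groups), the highest or lowest array stood apart from the rest by Dixon's criterion 12 times; chance gives about 1 in 20 groups. On STZ, BEZ replicate 5 the highest values of the group were 12.75 for Alb, 11.25 for Ttr, 10.99 for Apoa1, 11.56 for Apoa2, 10.05 for Fgb and 9.99 for Ahsg, where the next highest STZ, BEZ arrays stood at 10.63, 8.02, 8.12, 7.98, 6.76 and 6.74 in the same order of genes. On the same array the hepatocyte enzymes and transporters averaged 7.61, next 6.02, and the other plasma proteins of hepatocytes 8.01, next 6.22. On STZ, SD replicate 6 Apoa1 was the highest of the group at 9.70, next 8.00, Cp the lowest at 9.73, next 10.77, and the pancreas markers the highest at 12.92, next 6.00. On Con, SD replicate 2 the hepatocyte enzymes and transporters averaged 6.68, next 6.23.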

How the results depend on the processing

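Of the gene-level differences re-computed without leaving out single arrays, 365 kept their direction and call, 40 newly passed, 2 no longer passed and 13 turned direction. The 365 include those of Alb, which have no call and were counted as kept if they moved by less than the SD of the first-named group. Genes called numbered 2063 in STZ, SD against Con, SD, 141 in STZ, BEZ against STZ, SD and 1187 in STZ, BEZ against Con, SD. In the same order they were 1089, 17 and 602 at an adjusted p under 0.05, 3374, 378 and 3804 with array weights, 1022, 14 and 2820 with the arrays of each pair of groups alone, and 4154, 3382 and 4118 with hepatocyte, pancreas and epididymis lists as covariates. All probe sets gave 4264 in STZ, SD against Con, SD. The SAM-type test gave 2046 there. In STZ, BEZ against STZ, SD, equal array medians gave 76, the hepatocyte list as a covariate 37, the SAM-type test 728, and the fits without 2 and 4 arrays 72 and 56. In STZ, BEZ against Con, SD, all probe sets gave 1908, the SAM-type test 4567 and the fit without 4 arrays 436. With the replicate block the counts were 680, 2 and 599, and 0, 0 and 0 of the 9 plasma protein genes tested; same-numbered arrays deviated together with correlations from -0.36 to 0.70, so the numbers were not taken as pairs. Leaving out each array in turn gave 1128 to 2897, 11 to 705 and 418 to 2096 genes.

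Of the 9 plasma protein genes tested (Alb not counted), 1, 0 and 0 were called, where 10.3%, 0.707% and 5.95% of all genes were. In STZ, SD against Con, SD this was 0 at an adjusted p under 0.05 (5.46% of all genes), 0 with the replicate block (3.41%), 2 with array weights (16.9%), 2 with the arrays of the 2 groups alone (5.13%), 6 by the SAM-type test (10.3%), 3 with the hepatocyte list (11.5%) and 8 with 3 lists as covariates (20.8%), 6 without 2 arrays (14.4%) and 6 without 4 (12.1%), and 0 to 4 without single arrays, with 4 without STZ, BEZ replicate 5 (9.94%). Between STZ, BEZ and STZ, SD it was 3 with 3 covariates (17% of all genes) and 0 without any single array. The 3 were higher in STZ, BEZ: Hp (1.03, limma adjusted p = 0.0116), Trf (1.16, 0.00143) and Cp (0.50, 0.0315). The pancreas covariate was high only on STZ, BEZ replicates 1 to 4 and STZ, SD replicate 6, so its part and that of the group cannot be well told apart. With no covariate and without STZ, SD replicate 6, the differences of Hp, Trf and Cp were 0.11, 0.44 and -0.08, none called. Between STZ, BEZ and Con, SD it was 1 with array weights (19.1%), 1 with the arrays of the 2 groups alone (14.1%), 3 by the SAM-type test (22.9%), 4 with 3 covariates (20.7%), 1 without 2 arrays (5.01%) and 0 to 1 without single arrays. Apoa2 no longer passed with array weights (adjusted p = 0.114) or the replicate block (adjusted p = 0.164).

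Every difference that turned was called in neither fit. In STZ, BEZ against STZ, SD, Ttr was -0.12 with 3 covariates, Apoa1 -0.011 with 1 and -0.56 with 3 covariates, and Cp -0.075 with array weights and -0.064 without 2 or 4 arrays. In STZ, BEZ against Con, SD, Ahsg was -0.45 with array weights, -0.058 with the replicate block, -0.20 with 1 and -0.072 with 3 covariates, -0.64 without 2 and -0.20 without 4 arrays, and Hp was 0.28 with 3 covariates. Without single arrays, the differences that turned ranged from -0.081 to 0.22 for Cp in STZ, BEZ against STZ, SD, and in STZ, BEZ against Con, SD from -0.89 to 0.10 for Ttr, -0.87 to 0.0072 for Apoa1, -0.87 to 0.081 for Fgb and -0.64 to 0.35 for Ahsg. The cause was not tested. Other probe sets of a plasma protein gene could not be tried, because each has 1 probe set with its symbol.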

Other observations

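Hpd and Tdo2, enzymes of tyrosine and tryptophan breakdown, shared part of the Apoc3 pattern. Both belong to the 25 hepatocyte enzymes and transporters and were chosen after their values were seen. The mean of that list did not share the pattern. It was 6.06, 6.19 and 5.91 on STZ, SD replicates 1, 2 and 4, against 5.94 to 6.68 in Con, SD mice. Hpd stood at 7.69, 9.16 and 8.30 on STZ, SD replicates 1, 2 and 4, against 6.78 to 7.04 on replicates 3, 5 and 6 and 6.4 to 8.05 in Con, SD mice. Tdo2 stood at 8.57, 7.69 and 7.05 on the same 3 STZ, SD arrays, against 5.08 to 6.26 on the others and 5.56 to 6.82 in Con, SD mice. Both were also high on STZ, BEZ replicate 5, at 10.17 and 9.26, where the other STZ, BEZ arrays ran from 6.54 to 7.30 and from 5.69 to 6.88.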
